A study of Mus musculus with 3 samples.

Results

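The cells described here are 296 cells from a culture of mouse embryonic fibroblasts driven toward motor neurons, sampled with supplements at 14 dpi, the unit in which the labels give time. They were chosen by counts of 2 genes: each has at least 5 unique molecular identifiers (UMIs, counted RNA molecules) of Calb1 and under 5 of Stmn2. They are 12.8% of the 2314 cells kept from that library (95% interval 11.5 to 14.2%) and come from 10522 kept cells in the series. Kept cells are those with 500 or more detected genes in which mitochondrial genes take no more than 20% of UMIs. They are called Calb1 cells below. The comparison groups come from the same library: 959 cells with at least 5 Stmn2 UMIs (Stmn2 cells), and 1059 cells under both thresholds (remaining cells).

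The study profiled single cells during direct conversion, in which introduced transcription factors turn a cell into another type without a stem cell stage. All the cells carried the Hb9::GFP reporter, green fluorescent protein under control sequence of the motor neuron gene Mnx1 (Hb9), and had received the LNI cassette of Lhx3, Neurog2 and Isl1 together with DDRR, an activated HRAS joined to a dominant-negative p53. The libraries at 14 dpi held cells sorted as Hb9::GFP-positive, 1 from culture with supplements (BDNF, CNTF, GDNF, FGF and RepSox, a TGF-beta receptor kinase inhibitor) and 1 without. A library at 4 dpi, with supplements, held cells sorted for a low signal of CellTrace, a dye diluted by division. Each group is 1 library, so no test between groups was possible and no p-value is given. Cells of a library are not replicates, and the intervals printed here cover counting error only. The 3′ reads do not separate introduced Lhx3, Neurog2, Isl1, Hras or Trp53 transcripts from those of the cells' own genes.

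Calb1 encodes calbindin-D28k, a cytosolic EF-hand protein that buffers calcium and marks particular neuron classes in brain and spinal cord, including Renshaw cells, and also transports calcium in kidney epithelium. Stmn2 encodes stathmin-2, a tubulin-binding protein of growing axons that is low in fibroblasts. Neurofilament subunits (Nefl, Nefm, Nefh) form the intermediate filaments of axons, and collagens, decorin and lumican are the matrix products of fibroblasts.

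Calb1 counts in the chosen cells ran from 5 to 101 UMIs per cell with a median of 13. The thresholds cut through a continuous range: 20 chosen cells had exactly 5 Calb1 UMIs and 44 cells left among the remaining cells had 4. On the other axis 12 chosen cells had 4 Stmn2 UMIs, and 7 cells with Calb1 over the threshold stayed out at 5 Stmn2 UMIs. A further group of 134 Stmn2 cells also had 5 or more Calb1 UMIs, so Calb1 counts this high were not limited to cells with little Stmn2. Median depth was 16845 UMIs in Calb1 cells, 16031 in Stmn2 cells and 11840 in remaining cells. A fixed count threshold therefore asks for a lower Stmn2 share in the deeper Calb1 cells: their Stmn2 level was 24.7 CPM (UMIs of a gene relative to all UMIs, summed over the cells of a group and scaled as is usual), against 41.0 in remaining cells and 1747 in Stmn2 cells. The levels of Calb1 that the choice set were 982 CPM in Calb1 cells, 171 in Stmn2 cells and 42.3 in remaining cells.

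**Figure D1:**
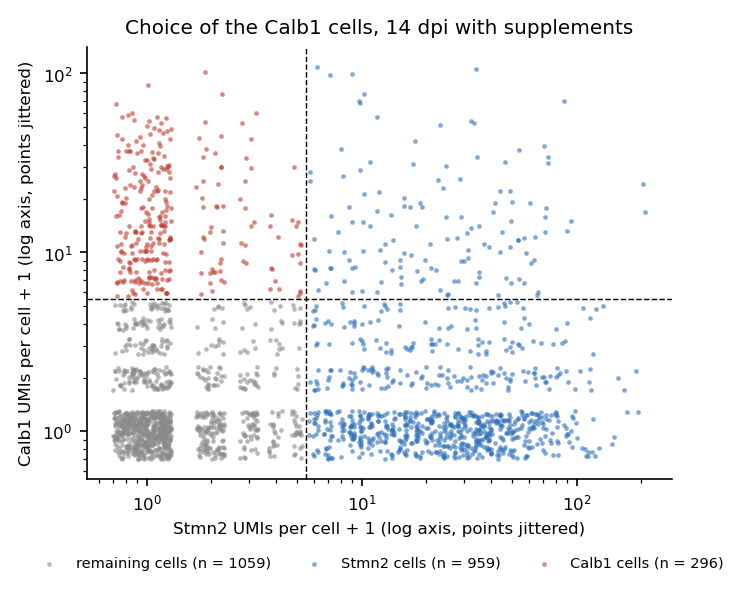
Calb1 against Stmn2 UMIs per cell (each plus 1, log axes, jittered) for the 2314 kept cells of the 14 dpi library with supplements; dashed lines mark the thresholds of 5 UMIs. The 296 Calb1 cells fill the upper left, and 134 of the 959 Stmn2 cells lie above the Calb1 threshold at the upper right.

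The working name of these cells places them between fibroblast and neuron, and gives Igf1, Cd36, Crabp2 and Plagl1 as further markers. Igf1 (insulin-like growth factor 1) measured 75.9 CPM in Calb1 cells, 9.64 in Stmn2 cells and 102 in remaining cells. Cd36, a fatty acid transporter, measured 83.7, 10.6 and 95.3 CPM in the same order. Both were thus far above their level in Stmn2 cells and slightly below that in remaining cells. Crabp2, which carries retinoic acid to its receptor, measured 121, 23.7 and 72.7 CPM, and Plagl1, an imprinted zinc finger factor, measured 321, 66.5 and 238 CPM. A gene was called different when its CPM differed by at least 2-fold with an interval that left out equality, among genes at 10 CPM or more in either group. All 4 markers were called higher than in Stmn2 cells, where 6.05% of 9269 genes were called higher. The markers were chosen with earlier results of these data known, so these calls are no separate support. None of the 4 was called against the remaining cells, where 0.468% of 8966 genes were called higher. These markers therefore set low-Stmn2 cells apart from Stmn2 cells, with Crabp2 and Plagl1 leaning toward Calb1 cells (log2 ratios of 0.73 and 0.43). Among Stmn2 cells, Cd36, Crabp2 and Plagl1 were also called higher with Calb1 at the threshold (log2 ratios 1.78, 1.355 and 1.22). Igf1 was not (0.74). From low-Stmn2 cells with no Calb1 UMI to those with the most, Crabp2 went from 61.7 to 151 CPM and Plagl1 from 228 to 346. Igf1 went from 112 to 71.6 CPM and Cd36 from 94.0 to 56.7.

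Fewer genes were called between Calb1 cells and remaining cells, which share the low Stmn2 count, than between Calb1 and Stmn2 cells. Against Stmn2 cells 1339 of 9269 genes were called (14.4%), 561 higher and 778 lower (8.39%). Against remaining cells 174 of 8966 were called (1.94%), 42 higher and 132 lower (1.47%). The position along the neuronal axis was read from 547 genes that were higher in Stmn2 cells than in remaining cells. With the log2 level in remaining cells set to 0% and that in Stmn2 cells to 100%, the Calb1 cells had a median position of -8.07% over those genes, and 511 of the 547 were within 2-fold of the remaining cells. Of the 593 genes lower in Stmn2 cells the median position was 12.7%, and 515 were within 2-fold of the remaining cells. Of 9454 genes, 11 (0.116%) were called between the other groups. The axis comes from the same split on Stmn2 that chose the Calb1 cells, which holds both Calb1 and remaining cells under 5 Stmn2 UMIs, so a position near the remaining cells was largely set by the choice and is given as a description only. The Stmn2 level was also lower in them than in remaining cells, as given above, and its part in this position was not tested.

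**Figure D2:**
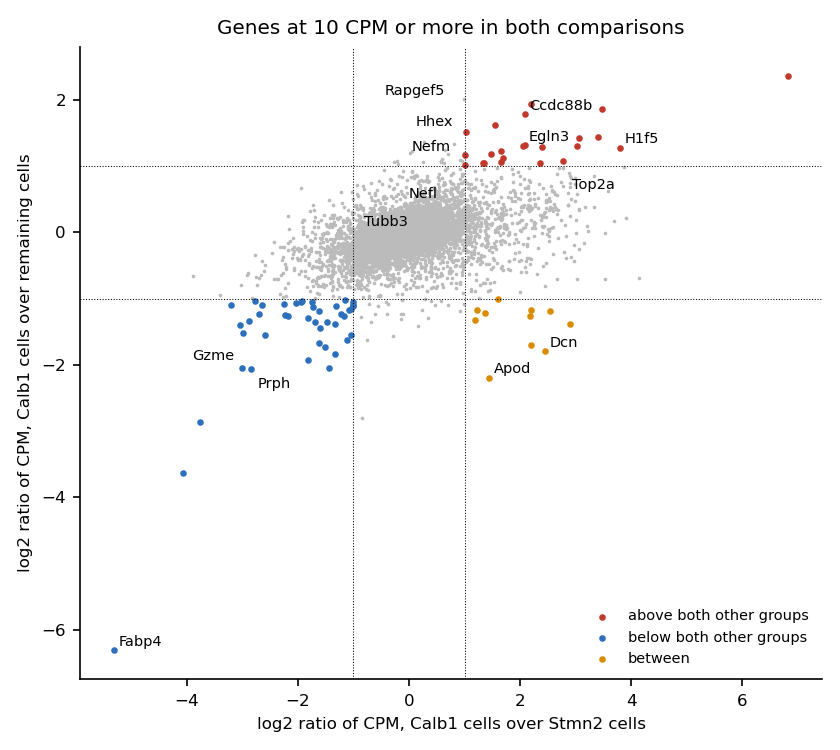
Log2 ratio of CPM in Calb1 cells over Stmn2 cells (x axis) and over remaining cells (y axis), 1 point per gene at 10 CPM or more in both comparisons, Calb1 and Stmn2 left out; dotted lines mark 2-fold. The spread along x exceeds that along y; red points are the 23 genes above both groups, blue the 43 below both and orange the 11 between.

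The genes with the highest levels relative to both other groups were single genes of differing function. Egln3, a prolyl hydroxylase that marks hypoxia-inducible factors for degradation, measured 167 CPM in Calb1 cells, 39.5 in Stmn2 cells and 67.1 in remaining cells. Its log2 ratio was 2.08 (1.94 to 2.23) over Stmn2 cells and 1.32 (1.19 to 1.45) over remaining cells. It was spread over many cells, with at least 1 UMI in 199 of the 296. Of the 19 glycolysis and hypoxia genes measured it was the only one called higher than in remaining cells (0.468% of all genes), with a list median of 0.09. Of the same list, 2 were called higher than in Stmn2 cells (6.05% of all genes). Ccdc88b, a coiled-coil protein known from T cells, measured 53.1, 12.5 and 15.4 CPM in the same order of groups. Hhex, a homeobox repressor, measured 52.2, 25.6 and 18.2 CPM. Both genes were carried by fewer cells, 72 and 83 of the 296. Itga1, the collagen-binding integrin alpha-1, measured 108, 21.1 and 52.5 CPM. Cttnbp2, a cortactin-binding protein of dendritic spines, measured 53.9, 21.2 and 26.2 CPM. Some of these calls lay near 2-fold: over 18 alternatives the call against remaining cells was kept in 12 for Itga1 (lowest log2 ratio 0.71) and in 14 for Cttnbp2 (lowest 0.80), and that of Hhex against Stmn2 cells in 13 (lowest 0.88). Rapgef5, an exchange factor for Rap GTPases, measured 70.1, 35.2 and 17.4 CPM, a log2 ratio of 2.01 (1.78 to 2.25) over remaining cells and of 0.99 over Stmn2 cells, just short of 2-fold. Igfbp2, a secreted binding protein of insulin-like growth factors, measured 142, 21.8 and 72.3 CPM, and the surface protein gene Ecscr 202, 67.7 and 104 CPM. These last 2 were called against Stmn2 cells only.

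In all 23 genes were called above both groups (0.243% of 9454) and most were at low levels. They included the developmental factors Lef1, Six3 (17.5 CPM), Pou3f1 (16.1 CPM) and Tfap2b (40.3 CPM), and the secreted factors Cxcl14 (44.9 CPM) and Prok2 (21.3 CPM), named after their values were seen. Cxcl14 measured 4.04 CPM in Stmn2 cells and 12.3 in remaining cells, with 39.4% of its UMIs in 5 of the 296 cells. Ccl5 also passed, but only 3 of the Calb1 cells held any of its UMIs. H1f5, a linker histone made in S phase, measured 72.6, 5.19 and 29.9 CPM, with 40.9% of its UMIs in 5 cells. Its difference from remaining cells rested on dividing cells: without cells holding a UMI of Mki67 or Top2a, the log2 ratio of 1.28 became -0.37.

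**Figure D3:**
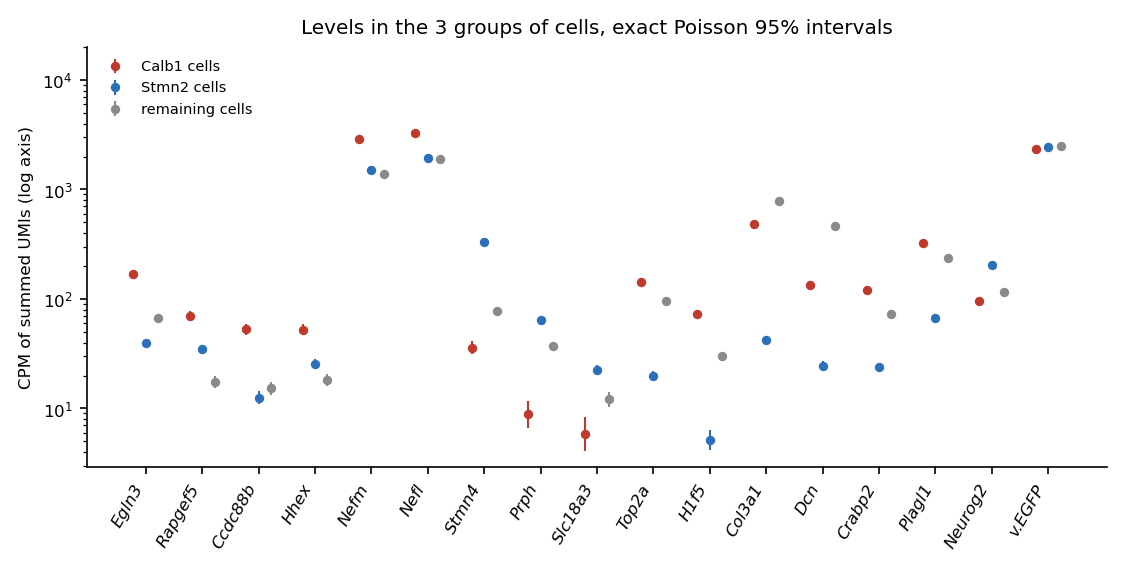
CPM of summed UMIs (log axis) for named genes in Calb1 cells (red), Stmn2 cells (blue) and remaining cells (grey) with exact Poisson 95% intervals. Egln3, Rapgef5, Ccdc88b and Hhex are highest in Calb1 cells, Prph, Stmn4 and Slc18a3 lowest there, and v.EGFP lies between 2330 and 2496 CPM in every group.

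Nefm and Nefl, the medium and light neurofilament subunits, departed from most other neuronal genes. Nefm measured 2911 CPM in Calb1 cells, 1501 in Stmn2 cells and 1383 in remaining cells, and Nefl 3265, 1954 and 1907 CPM. Nefm was called higher than in remaining cells (log2 ratio 1.07, a call kept in 14 of 18 alternatives, lowest 0.89) and lay just under 2-fold over Stmn2 cells (0.96). Nefl had log2 ratios of 0.78 and 0.74, under 2-fold in both comparisons. Their partners went with the other neuronal genes and were lower than in Stmn2 cells: the heavy subunit Nefh measured 3.22, 7.68 and 2.60 CPM, too low for a call, and Ina (alpha-internexin) 427, 1283 and 497 CPM. Summed over these 4 genes the level was 6606 CPM in Calb1 cells, 4746 in Stmn2 cells and 3791 in remaining cells, a sum carried by Nefl and Nefm.

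The other 19 pan-neuronal genes summed to 5448 CPM, against 11386 CPM in Stmn2 cells and 4946 in remaining cells. Of 22 pan-neuronal genes measured against Stmn2 cells, none was called higher and 12 lower, with a median log2 ratio of -1.20 against -0.09 over all genes. Of all genes 6.05% were called higher and 8.39% lower. Mapt, the axonal microtubule protein tau, measured 22.2 CPM in Calb1 cells and 165 in Stmn2 cells. Stmn3, a relative of Stmn2, measured 197 and 872 CPM, and Dcx, a microtubule protein of migrating neurons, 91.1 and 228 CPM. Tubb3, the neuronal beta-tubulin, measured 746 and 1383 CPM and was not called. Against remaining cells 1 of 20 pan-neuronal genes (Nefm) was called higher and none lower, with a median of 0.10 against -0.02 over all genes. In that comparison 0.468% of all genes were called higher and 1.47% lower. Tubb3 there measured 727 CPM and Map2, the dendritic microtubule protein, 138 CPM in Calb1 cells against 83.1.

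Genes of release followed the same pattern against Stmn2 cells, where 8.39% of all genes were called lower and 6.05% higher. They too are compared across the split on Stmn2 and are given as a description. Of 19 synaptic vesicle genes, 13 were called lower and none higher (median log2 ratio -1.40), among them Cplx1 (complexin 1), at 10.7 CPM against 87.7, and Syt4 (a synaptotagmin), at 53.1 against 294. Of 10 granin and peptide-processing genes, 8 were called lower (median -1.70). Scg2 (secretogranin II) measured 41.0 and 249.9 CPM, and Vgf, a nerve growth factor-inducible precursor, 67.6 and 262 CPM. Gal, the precursor of galanin, measured 3495 CPM in Calb1 cells, 9171 in Stmn2 cells and 6390 in remaining cells. Gap43, the growth cone protein, measured 982 CPM in Calb1 cells, 2738 in Stmn2 cells and 976 in remaining cells. Of 11 glutamate receptor genes 5 were called lower than in Stmn2 cells, including the AMPA subunit Gria2 at 24.2 against 109 CPM. None of these lists had a member called higher in Calb1 cells than in remaining cells, which at 0.468% of all genes says nothing about the lists. Of 16 synaptic vesicle genes 1 was called lower there, where 1.47% of all genes were.

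Neither Pcp4 nor Calb2 was called higher in Calb1 cells than in another group, Calb2 being below the 10 CPM needed for a call. Pcp4, a small IQ-motif protein of neurons, measured 316 CPM in Calb1 cells, 1185 in Stmn2 cells and 311 in remaining cells. Calb2, the relative calretinin, measured 3.22, 2.77 and 5.48 CPM.

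A smaller set of neuronal and positional genes was lower in Calb1 cells than in both other groups, where 43 of 9454 genes (0.455%) were called so. Prph, the peripheral-nerve filament peripherin, measured 8.95 CPM in Calb1 cells, 64.1 in Stmn2 cells and 37.5 in remaining cells. Its UMIs came from 17 of the 296 cells. Stmn4, another stathmin, measured 36.0, 333 and 77.0 CPM. Slc18a3, the vesicular acetylcholine transporter of motor neurons, measured 5.90, 22.6 and 12.1 CPM. Its log2 ratio over remaining cells, -1.04, stayed called in 13 of 18 alternatives and was -0.34 after each cell was cut to 5000 UMIs. That of Stmn4, -1.10, stayed called in 15 and reached -0.67. Hox genes, which mark position along the body axis, were lower too: Hoxb9 measured 6.62, 52.2 and 18.9 CPM, Hoxc9 1.61, 21.8 and 11.8, and Hoxc10 3.58, 21.6 and 10.5, the last called against remaining cells in 13 of 18 alternatives. Of 15 Hox genes measured against Stmn2 cells 9 were called lower and none higher (8.39% and 6.05% of all genes). Against remaining cells 3 of 8 were called lower and 1, Hoxb8, higher, at 13.4 against 6.56 CPM (1.47% and 0.468% of all genes). Hoxa9 measured 20.8, 22.2 and 18.3 CPM, so the Hox difference did not cover every gene. These are low levels, and the part of the stricter Stmn2 cut in deeper cells was not tested.

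The immediate early phosphatase gene Dusp1 measured 34.5 CPM in Calb1 cells, 155 in Stmn2 cells and 82.6 in remaining cells. Ly6a, the surface antigen Sca-1, measured 73.2, 158 and 225 CPM (called against Stmn2 cells in 12 of 18 alternatives), and the calcium-binding S100a1 43.8, 103 and 103 CPM. Gzme, a granzyme, measured 17.2, 138 and 71.2 CPM. Fabp4, a fatty acid-binding protein of adipocytes, was the gene with the lowest ratios, at 0.716, 28.3 and 56.7 CPM. That value rests on few cells: 94.3% of its UMIs in Stmn2 cells came from 1 cell, and only 47 remaining cells held any. Cutting all cells to 5000 UMIs moved cells between the groups, and the log2 ratio over Stmn2 cells went from -5.31 to 3.24. No direction for Fabp4 is therefore stated.

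Cell-cycle genes separated Calb1 cells from Stmn2 cells. Of 27 S and G2/M phase genes measured, 24 were called higher than in Stmn2 cells and none lower, with a median log2 ratio of 2.46. Over all genes 6.05% were called higher and 8.39% lower. Top2a, the mitotic DNA topoisomerase, measured 144 CPM in Calb1 cells, 19.8 in Stmn2 cells and 95.8 in remaining cells. Mki67, the proliferation antigen, measured 61.0, 9.52 and 48.0 CPM. Against remaining cells none of 28 was called in either direction (median 0.30), which at 1.94% of all genes says little about the list. After every cell was cut to 5000 UMIs, 18.4% of Calb1 cells (14.1 to 23.3%) held a UMI of either gene, 3.34% of Stmn2 cells and 15.7% of remaining cells. Before depth was cut the shares were 28.4%, 7.61% and 20.4%. The interval of Calb1 cells includes the share of remaining cells. Most Calb1 cells thus held neither transcript at this depth. Without cells holding such a UMI, 7 in place of 24 cell-cycle genes were called higher than in Stmn2 cells.

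Fibroblast genes were above their level in Stmn2 cells and below that in remaining cells. Of 22 measured, 12 were called higher and 1 lower than in Stmn2 cells (median log2 ratio 1.24), and none higher and 6 lower than in remaining cells (median -0.47). Over all genes 6.05% were called higher and 8.39% lower than in Stmn2 cells, and 0.468% and 1.47% against remaining cells. Col3a1, a fibrillar collagen, measured 485 CPM in Calb1 cells, 41.8 in Stmn2 cells and 793 in remaining cells. Its log2 ratio over remaining cells, -0.71 and not called, ran from -0.92 to 0.88 over the 18 alternatives. That of the collagen gene Col5a1, -0.02 at first, ran from -0.25 to 1.20. Dcn (decorin) measured 135, 24.6 and 466 CPM, Lum (lumican) 152, 18.5 and 246, and Col1a1 46.2, 10.0 and 149. The 24 genes of the list summed to 4229, 1997 and 6178 CPM. This signal was uneven among the Calb1 cells: 5 cells held 42.6% of the Dcn UMIs and 49.2% of those of Col1a1, while Col3a1 was broader, with 19.4% in 5 cells.

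In 50 of the 296 Calb1 cells (16.9%, 12.8 to 21.7%) fibroblast UMIs outnumbered pan-neuronal ones. The shares were 1.25% in Stmn2 cells and 32.0% in remaining cells. With such cells left out of every group, Dcn had a log2 ratio of -0.39 over remaining cells in place of -1.79 and Col1a1 one of 0.12 in place of -1.69, and the fibroblast genes called lower went from 6 to 1. That exclusion uses the fibroblast genes themselves. The lower fibroblast level of the group went with a smaller share of such cells. That share also depends on the pan-neuronal count, which includes the neurofilaments, at 6606 CPM in Calb1 cells and 3791 in remaining cells. The part of each was not tested. Other genes called between the groups included Apod, a lipocalin of fibroblasts (14.3, 5.25 and 65.4 CPM), the imprinted RNA H19 (48.7, 6.52 and 127 CPM) and the chemokine Ccl2 (75.2, 16.6 and 181 CPM). With those cells left out, the log2 ratio over remaining cells was 1.10 for Apod and 0.063 for H19. That of Ccl2, -1.27 at first, was no higher than -0.85 in any of the 18 alternatives. Igfbp7, a matrix-bound growth factor-binding protein, was lower than in remaining cells (11.3 against 78.5 CPM, log2 ratio -2.80) and stood at 20.4 CPM in Stmn2 cells.

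**Figure D4:**
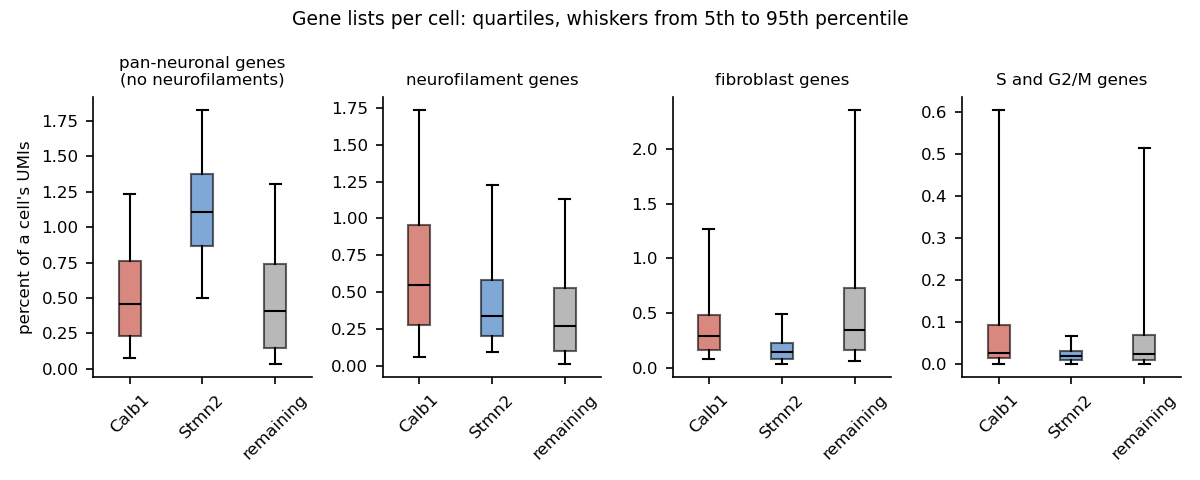
Percent of each cell's UMIs from 4 gene lists in Calb1, Stmn2 and remaining cells; boxes span the quartiles with the median, and whiskers run from the 5th to the 95th percentile of cells. The neurofilament median is highest in Calb1 cells (0.545%), while their pan-neuronal median without neurofilaments (0.461%) lies near that of remaining cells (0.409%) and below that of Stmn2 cells (1.11%).

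Genes of signalling and patterning were also read, among them receptors for the growth factors supplied. Retinoid genes leaned to Calb1 over Stmn2 cells, with 6 of 10 called higher and 1 lower, against 6.05% and 8.39% of all genes. Against remaining cells none of 11 was called higher and 1 lower, where 0.468% and 1.47% of all genes were. Crabp1, a retinoic acid-binding protein, measured 1611 CPM in Calb1 cells, 674 in Stmn2 cells and 1699 in remaining cells, and Aldh1a3, which makes retinoic acid, 74.8, 12.5 and 59.8 CPM. Of 19 interferon-stimulated genes 9 were called higher than in Stmn2 cells (6.05% over all genes) and none lower (8.39%), with Ifitm3 at 784, 199.8 and 960 CPM. None of 21 was called against remaining cells, where 1.94% of all genes were. In the insulin-like growth factor system, 5 of 15 genes were called higher than in Stmn2 cells (6.05% over all genes). In that comparison 1 was called lower, near the 8.39% over all genes. Against remaining cells none of 16 was called higher and 2 lower, where 0.468% and 1.47% of all genes were. Igfbp3 measured 550, 68.2 and 481 CPM. Among receptors for the growth factors supplied, Fgfr1 measured 123, 40.4 and 88.3 CPM, Ret, the receptor subunit for GDNF, 27.9, 81.5 and 32.7 CPM, and Cntfr 14.3, 31.6 and 15.2 CPM. No receptor of that list was called against remaining cells, which at 1.94% of all genes says little about the list. The neural progenitor genes Slc1a3, a glutamate transporter (76.6, 12.1 and 41.8 CPM), and Sox2 (75.5, 44.1 and 50.5 CPM) were under 2-fold over remaining cells.

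The reporter transcript did not mark the Calb1 cells out. The v.EGFP feature measured 2330 CPM in Calb1 cells, 2441 in Stmn2 cells and 2496 in remaining cells, all groups having passed the same sort. Of the cassette's factors, Neurog2 measured 96.8, 203 and 116 CPM, Lhx3 80.2, 114 and 72.1 CPM, and Isl1 59.2, 117 and 65.6 CPM. Neurog2 was called lower than in Stmn2 cells (log2 ratio -1.07), and none of the 3 was called against remaining cells. Mnx1, the gene behind the reporter, measured 7.52, 13.8 and 11.5 CPM. Hras measured 168, 185 and 161 CPM and Trp53 118, 103 and 128 CPM. Of 11 motor neuron genes measured against remaining cells 3 were called lower, where 1.47% of all genes were. None was called higher, which at 0.468% of all genes says nothing about the list. Chat, the enzyme that makes acetylcholine, was near its floor at 0.537 CPM.

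Other cell types were checked by their markers. The 13 macrophage genes summed to 5.55 CPM in Calb1 cells, 5.66 in Stmn2 cells and 7.93 in remaining cells, with 6 at 0 in Calb1 cells, Ptprc (CD45) among them. The 12 epithelial genes summed to 10.4, 13.8 and 12.2 CPM, with 6 at 0, and Krt14 had no UMI in any group. The 12 endothelial genes summed to 111, 68.5 and 102 CPM, highest in Calb1 cells, with 3 at 0 there. The sum came mainly from Cd34 (43.8 CPM in Calb1 cells) and Egfl7 (42.4 CPM), whose log2 ratios were 0.43 and 0.99 over Stmn2 cells and -0.06 and 0.78 over remaining cells, none called. The defining markers Pecam1 and Cdh5 were each at 0.358 CPM, and the part of endothelial RNA was not tested. The skeletal muscle list summed to 57.1, 75.9 and 66.7 CPM with 5 of 14 genes at 0, Myod1 among them. Of the cells with the highest doublet scores, which were 4.41% of kept cells, the Calb1 cells held 16 (5.41% of 296). Scrublet's own cut called only 3 of the 2314 cells, so it did not work here and no cell was removed as a doublet.

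Within the low-Stmn2 cells, several genes followed the count of Calb1 itself. Over the 1355 cells with under 5 Stmn2 UMIs, Calb1 was compared with the 3256 genes at 50 CPM or more in Calb1 cells. That limit was set in cells picked on Calb1 that are among the 1355, so the ranking is not independent of the choice. The closest log-scaled levels were those of Rapgef5 (Pearson r = 0.35), Nefm (0.34), Egln3 (0.33) and Nefl (0.31), followed by Sez6l2, Etv1, Xpr1, Fam107b, Prdx5 and Slc5a3 (0.27 to 0.23). Depth was about as close to 3 of these genes as Calb1 was: Prdx5 had r = 0.25 with depth and 0.24 with Calb1, Slc5a3 0.21 and 0.23, and Etv1 0.22 and 0.26. These are weak correlations across cells of 1 library that share depth, which itself had r = 0.15 with Calb1, and they are given as a description. Egln3 measured 60.0 CPM in cells with no Calb1 UMI, 82.3 at 1 to 4 UMIs, 115 at 5 to 9, 145 at 10 to 19 and 226 at 20 or more. Rapgef5 went from 12.3 to 28.1, 48.0, 48.6 and 105 CPM over the same bins. Nefm went from 1202 to 1768, 2836, 2631 and 3205 CPM. Their intervals, which cover counting error only, did not overlap between the first and the last bin. These 3 genes were named for following Calb1 over the same cells, so their order is no separate support. Tubb3 stayed between 663 and 845 CPM, with no such order. In the other direction Igfbp7 went from 92.0 to 9.29 CPM and Prph from 37.1 to 6.04 CPM. Hoxb9 measured 23.1 CPM at no Calb1 UMI and 0.465 CPM, a single UMI, at 20 or more. The bins held 761, 298, 105, 94 and 97 cells, and their median depth went from 11300 to 19991 UMIs.

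**Figure D5:**
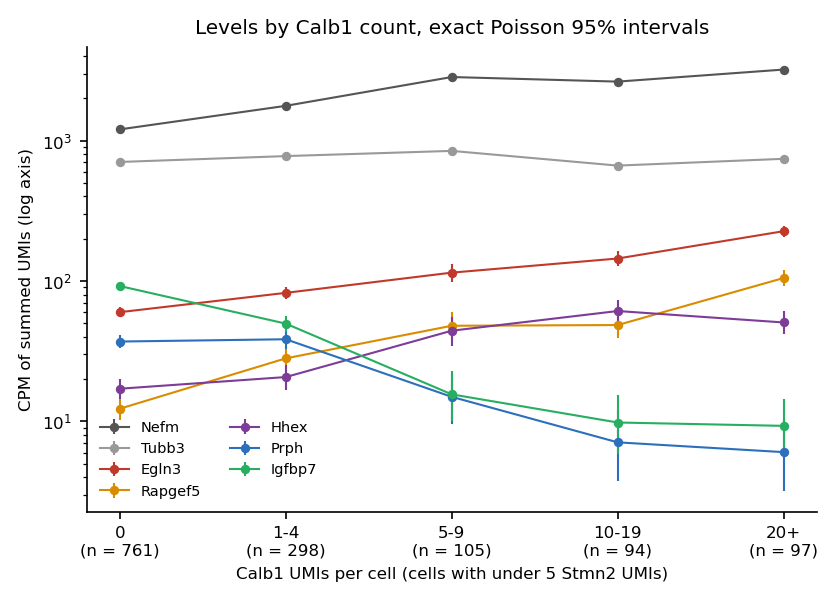
CPM of summed UMIs (log axis) in cells with under 5 Stmn2 UMIs, in 5 bins of Calb1 UMIs per cell, with exact Poisson 95% intervals and the number of cells per bin. Egln3, Rapgef5 and Nefm are higher in bins with more Calb1 (Egln3 from 60.0 to 226 CPM), Igfbp7 and Prph lower, and Tubb3 is level.

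The 134 Stmn2 cells with 5 or more Calb1 UMIs took no part in choosing the Calb1 cells. Compared with the other 825 Stmn2 cells, 232 of 9025 genes were called (2.57%), 156 higher (1.73%) and 76 lower (0.842%). Egln3 measured 87.3 CPM with Calb1 at the threshold and 28.3 below it (log2 ratio 1.62, 1.40 to 1.84). Itga1 measured 62.9 and 11.3 CPM, Ccdc88b 28.9 and 8.69, Rapgef5 61.4 and 29.1, Ecscr 164 and 45.2, and Igfbp2 46.5 and 15.95. Nefm measured 2425 and 1285 CPM and Nefl 2828 and 1749 CPM, both under 2-fold. Values were lower with Calb1 for Stmn4 (183 and 368 CPM) and Hoxb9 (log2 ratio -1.29). Hhex went the opposite way from the Calb1 cells, at 18.9 and 27.2 CPM. Prph (58.4 and 65.4 CPM) and Gzme (135 and 139 CPM) were alike in both. Of the named markers Cd36 (24.9 and 7.27 CPM), Crabp2 (46.8 and 18.3) and Plagl1 (124 and 53.1) were called higher with Calb1. Igf1 (14.3 and 8.55 CPM) was not. Among fibroblast genes Lum was called higher (43.8 and 12.6 CPM) and Col1a1 (6.69 and 10.8 CPM) was not. Some genes that accompanied Calb1 in low-Stmn2 cells were thus also higher with it in Stmn2 cells. So were some genes high in low-Stmn2 cells in general, and whether the difference was particular to Calb1 was not tested. These 134 cells were deeper, with a median of 21326 UMIs against 15223. At that greater depth they held a median of 21.5 Stmn2 UMIs against 24. The part of a lower Stmn2 level in these differences was not tested.

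The Calb1 cells differed among themselves in their neuronal, fibroblast and cell-cycle shares. Over the 296 cells the pan-neuronal share of UMIs ran from 0.0445 to 3.71% with a median of 1.05%, and the fibroblast share from 0.0315 to 4.04% with a median of 0.295%. The 2 shares had Pearson r = -0.38 and Spearman rho = -0.43, as a description of cells from 1 library. The neurofilament share had r = 0.24 with the other pan-neuronal genes and 0.19 with the Calb1 level. Calb1 level had almost no relation to the fibroblast share (r = -0.05) or to the cell-cycle share (r = -0.08). The cell-cycle share was below 0.0938% in the lower 75% of cells and reached 0.998%, so this signal sat in a minority.

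Cells fitting the same count rule were scarce in the other libraries. Without supplements 42 of 3716 kept cells fitted (1.13%, 0.816 to 1.52%), and at 4 dpi 5 of 4492 (0.111%, 0.0362 to 0.260%). The median depth per cell was 14380.5 UMIs with supplements, 10664 without and 2312.5 at 4 dpi, so shares by a fixed count are not at equal depth. After each cell was cut to 5000 UMIs, with thresholds of 2 UMIs, the shares were 13.5% with supplements, 1.84% without and 1.08% at 4 dpi, where only 369 cells were deep enough. The level of Calb1 over all kept cells was 245 CPM with supplements, 24.4 without and 14.8 at 4 dpi. The largest count in a cell was 108, 57 and 12 UMIs. With 1 library per culture, the supplements and the culture cannot be told apart. The libraries shared 3 to 5 cell barcodes in pairs, none of them of a Calb1 cell.

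The 42 cells without supplements matched the Calb1 cells only in part. Their median depth was 16136.5 UMIs against 10241 in the 3082 remaining cells of that library, and 437 of 9190 genes were called (4.76%), 175 higher (1.9%) and 262 lower (2.85%). Ccdc88b was again higher, at 158 CPM against 47.4 (log2 ratio 1.73). Fam107b had a log2 ratio of 0.99 there and 1.09 with supplements. Egln3 measured 90.6 against 73.3 CPM (0.30) and Nefm 1118 against 813 CPM (0.46), both smaller than with supplements (1.32 and 1.07). Rapgef5 was near the limit of detection in that library, at 4.38 against 4.89 CPM. Of 22 fibroblast genes 11 were called lower and none higher, and of 28 cell-cycle genes 4 lower and none higher. Igf1 had no UMI in the 42 cells, and Plagl1 measured 42.4 against 62.9 CPM. Among the named markers only Calb1 itself, which chose the cells, was thus higher than in the remaining cells of both libraries. Differences between the libraries were not tested.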

How the data were processed

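Single-cell RNA was measured by 10x Genomics 3′ sequencing in 3 libraries. The deposited matrices hold UMI counts of each gene in each barcode; the file headers name Cell Ranger 6.1.1. Reads were aligned to GRCm39, per the submitters' processing notes, and the feature table includes an added EGFP sequence (v.EGFP). The sources used here do not give how barcodes were called as cells. Features with the same symbol were summed, from 31783 to 31744. Groups compared were summed to CPM with exact Poisson 95% intervals, log2 ratios have exact binomial (Clopper-Pearson) intervals, and a count of 0 was set to 3 counts in ratios. Shares have Clopper-Pearson intervals. Calb1 and Stmn2 were left out of the calls. The authors' counts were used as deposited. The comparison was tested on simulated counts. The rule for named genes took the 12 highest and 12 lowest ratios of each comparison at 50 CPM or more, the 10 most above and 10 most below both groups, the 10 closest to Calb1 across cells and up to 5 genes per list. The members, gene lists and thresholds were chosen with earlier results of these data known. Python 3.11.15, scipy 1.17.1 and scanpy 1.11.5 were used. A result on a further listed gene is not reported here.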

Additional observations from a re-analysis of the deposited data

Results flagged for a closer look

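Several genes moved in opposite directions in the cells of the 2 libraries at 14 dpi that met the count rule. Each value is a log2 ratio of CPM over the remaining cells of the same library, and a gene is given where its counting interval left out 0 on opposite sides and at least 1 of the ratios was called. The difference between the libraries was not tested, since each culture is 1 library and only 42 cells met the rule without supplements.

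Hhex was 1.52 with supplements and -0.55 without. The cell-cycle genes Mki67 (0.35 and -1.50) and Mcm3 (0.77 and -1.37) and the myelin protein gene Pmp22 (0.24 and -1.85) had the same signs. The opposite signs were found for the chemokine Ccl2 (-1.27 and 1.27), for the interferon-induced genes Ifi44 (-0.86 and 1.02) and Psmb8 (-0.78 and 1.11), and for the cytokine feedback gene Socs2 (-0.60 and 1.01). They were also found for Nnat (-0.64 and 1.43), S100a1 (-1.23 and 0.43) and Vgf (-0.25 and 1.41).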

How the results depend on the processing

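No paired analysis was possible because each group holds 1 library. Over the named genes and the alternatives tried, 7219 of the recomputed ratios kept their call or stayed uncalled. Uncalled ratios among these could change sign where they moved by less than 2-fold. Of the others, 266 were no longer called and 230 became called. A further 16, uncalled at first, changed sign and moved by 2-fold or more. The last 9 were called at first and changed sign. The share of Calb1 cells was 8.25% at 10 Calb1 UMIs, 16.8% at 3, and 14.6% in cells with 2000 genes and at most 10% mitochondrial UMIs. Genes above and below both groups numbered 41 and 84 at 10 Calb1 UMIs, and 22 were below both at 3. At 5000 UMIs per cell they numbered 47 and 96, with 89 genes higher and 237 lower than in remaining cells. By the mean of per-cell CPM, 225 were lower than in remaining cells and 87 below both. At a minimum of 50 CPM, 178 genes were higher and 263 lower than in Stmn2 cells, 10 and 22 against remaining cells, 6 above both, 6 below both, and 9 cell-cycle genes were higher than in Stmn2 cells. At 1 CPM these counts were 1144, 1568, 161, 550, 96 and 225. Without cells holding Mki67 or Top2a, 7 cell-cycle genes were higher than in Stmn2 cells, 3 fibroblast genes were lower than in remaining cells, and H1f5 became -0.37. The alternatives that left out cells with more fibroblast than pan-neuronal UMIs, or kept only cells in a middle range of depth, were chosen after seeing the data. The first gave 66 genes higher than in remaining cells, 55 above both and 1 fibroblast gene lower, with Apod at 1.10, Col1a1 at 0.12, H19 at 0.063, Lpl at 0.25 and Mmp3 at 0.44. Against Stmn2 cells, Fabp4 was 3.24 at 5000 UMIs per cell and 2.62 in the middle range of depth, and Tac1 was 0.13 at 5000 UMIs. Without mitochondrial and ribosomal genes, Calb1 measured 306 CPM with supplements, 32.3 without and 19.5 at 4 dpi. The cause was not tested where the alternative's construction does not show it.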
